A study of Mus musculus with 2 samples.

Results

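The galectin family comprised 8 genes in a table of 51912 Ensembl genes, taken by symbol: Lgals1, Lgals2, Lgals3, Lgals3bp, Lgals4, Lgals7, Lgals8 and Lgals9. The mRNA of 4T1 cells, a mouse mammary carcinoma line, was sequenced in 2 libraries, 1 per group. In the co-culture group 4T1 cells in the lower chamber of a transwell grew for 3 days beneath M2 macrophages, alternatively activated phagocytes, in the upper chamber, and the control group was 4T1 cells without this treatment. No replicate was made, it is not stated whether the controls sat below an empty chamber, and the co-culture library's title names the cells 4T2 where its treatment label names 4T1. No other treatment, genotype or agent is given for either group. With 1 library per group no difference can be tested, and every difference below is between these libraries only.

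Galectins are lectins that bind beta-galactosides, above all the N-acetyllactosamine units of N- and O-glycans, through a conserved carbohydrate-recognition domain. They are made in the cytosol without a signal peptide, leave the cell by a non-classical route, and cross-link glycoproteins at the surface, while inside the cell they bind glycans exposed on broken vesicles. Prototype galectins carry a single recognition domain and pair up, the chimera galectin joins its domain to a long flexible tail, and tandem-repeat galectins carry a pair of different domains on a single chain. In tumours, galectins released by cancer cells are known to act on T cells, endothelium and matrix adhesion.

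The 4T1 galectin mRNA pool was nearly all Lgals1 and Lgals3 in both libraries, and the family's large relative difference was in Lgals2, a minor member. Lgals2 had 11.8 TPM in co-culture and 0.53 TPM in the control. Lgals3 had a lower value in co-culture, 1102 TPM against 1748 TPM in the control, and Lgals1 was close in both, 8992 TPM in co-culture and 9549 TPM in the control. TPM, a measure of transcript abundance, divides reads by transcript length, so levels can be set side by side between genes. Of the 8 genes, 7 had a mean of at least 1 TPM over the libraries, the minimum used here for calling a gene detected. Lgals2 passed through its co-culture value alone, so a difference follows from its passing. Ratios are log2((co-culture TPM + 1)/(control TPM + 1)), a scale that understates differences of low genes.

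The promoter windows of Lgals2 and Lgals3 are shown because these members had the highest and the lowest ratio of the family. Each runs from 250 bases before to 50 bases after the RefSeq transcription start on GRCm38.p6, 5′ to 3′ on the gene's strand, and capitals mark CpG dinucleotides. Lgals2 lies on the minus strand at chr15:78855480-78855779 and Lgals3 on the plus strand at chr14:47373610-47373909.
Lgals2: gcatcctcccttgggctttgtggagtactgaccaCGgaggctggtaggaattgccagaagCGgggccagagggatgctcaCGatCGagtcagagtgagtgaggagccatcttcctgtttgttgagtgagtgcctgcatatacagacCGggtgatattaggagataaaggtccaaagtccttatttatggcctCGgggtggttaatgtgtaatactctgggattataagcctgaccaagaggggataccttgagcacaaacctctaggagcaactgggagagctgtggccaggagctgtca
Lgals3: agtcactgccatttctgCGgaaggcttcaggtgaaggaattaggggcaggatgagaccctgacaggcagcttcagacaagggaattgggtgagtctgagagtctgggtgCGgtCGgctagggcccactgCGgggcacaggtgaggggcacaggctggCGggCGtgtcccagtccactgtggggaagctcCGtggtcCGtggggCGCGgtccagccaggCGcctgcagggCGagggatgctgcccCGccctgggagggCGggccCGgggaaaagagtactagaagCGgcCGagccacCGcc
The Lgals2 window held 6 CpG and 52.0% G and C, and the Lgals3 window held 18 CpG and 67.0% G and C. Over 32817 promoter windows of the same length the median was 7 CpG, 29.7% had at least 18, and 47.9% had at most 6. The RefSeq table held windows for 7 of the 8 members, all but Lgals1, and the windows of the other 5 had 3 to 6 CpG. Of 6 motifs searched on both strands (the TATA box as TATAAA, the CCAAT box by those letters, the AP-1 site as TGANTCA, the STAT site as TTCNNNGAA, the core of the hypoxia response element as ACGTG, and the amino acid response element as TGATGNAA), none had a match in the Lgals2 window. The Lgals3 window held 1, a CCAAT box on the reverse strand whose leftmost base is at -167 from the start, a motif found in 37.4% of all windows. The other motifs were found in 13.6% of all windows for the TATA box, 7.81% for AP-1, 8.29% for STAT, 19.6% for the hypoxia core and 3.97% for the amino acid response element. A window without these letters says nothing on the factors themselves.

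**Figure D1:**
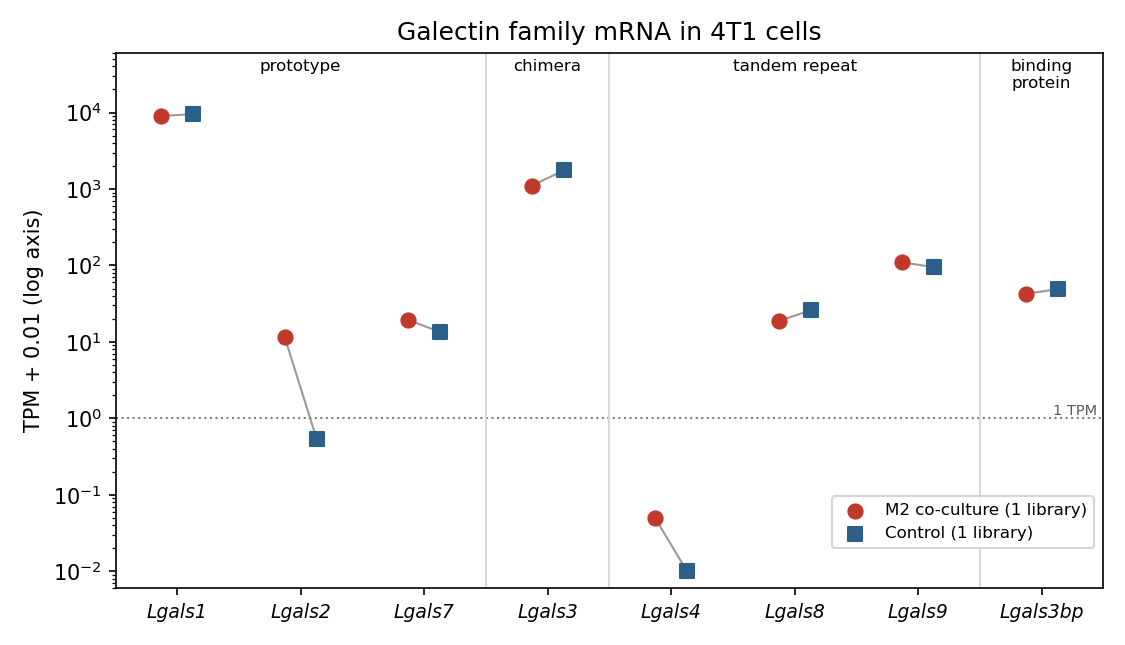
TPM of each galectin family gene in the co-culture library (red circles) and the control library (blue squares) on a log axis, with 0.01 TPM added so that 0 can be drawn; genes are grouped by protein type and each point is a single library. Lgals1 and Lgals3 lie above the rest in both libraries, and the points of Lgals2 are the farthest apart, at 11.8 TPM in co-culture and 0.53 TPM in the control.

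Together the 7 galectins, without the binding protein Lgals3bp, summed to 10253 TPM in co-culture and 11431 TPM in the control, which is 1.03% and 1.14% of all transcripts in those libraries. The co-culture sum differed from the control sum by -10.3%. Lgals1 took 87.7% of the galectin TPM in co-culture and 83.5% in the control, and Lgals3 took 10.7% in co-culture and 15.3% in the control. The co-culture library therefore held 8.16 Lgals1 transcripts per Lgals3 transcript, against 5.46 in the control. In TPM, the co-culture minus control differences were -646 for Lgals3 and -557 for Lgals1, out of -1178 for the sum. From high to low the order in co-culture was Lgals1, Lgals3, Lgals9, Lgals3bp, Lgals7, Lgals8, Lgals2 and Lgals4. In the control the order was the same except that Lgals8 stood above Lgals7. Without replicates no spread is known for any level, so no pair of neighbours in this order can be told apart by a test.

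By the 2-fold rule, a log2 ratio of at least 1 or at most -1, a single detected member (Lgals2) was higher in co-culture and 0 of 7 were lower. Among all 11258 detected genes 4.95% were at least 2-fold higher and 2.14% at least 2-fold lower, while the shares were 3.57% and 2.61% with median ratio centring and 3.01% and 3.16% with a TMM factor. Of the 7 detected members 3 had a higher value in co-culture at any size (Lgals2, Lgals7 and Lgals9) and 4 had a lower value (Lgals1, Lgals3, Lgals8 and Lgals3bp). Of all detected genes 64.5% had a higher value. The median ratio was -0.09 over the 7 members, 0.06 over the 6 of them that are galectins, and 0.17 over all detected genes, whose 25th and 75th percentiles were -0.14 and 0.48.

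**Figure D2:**
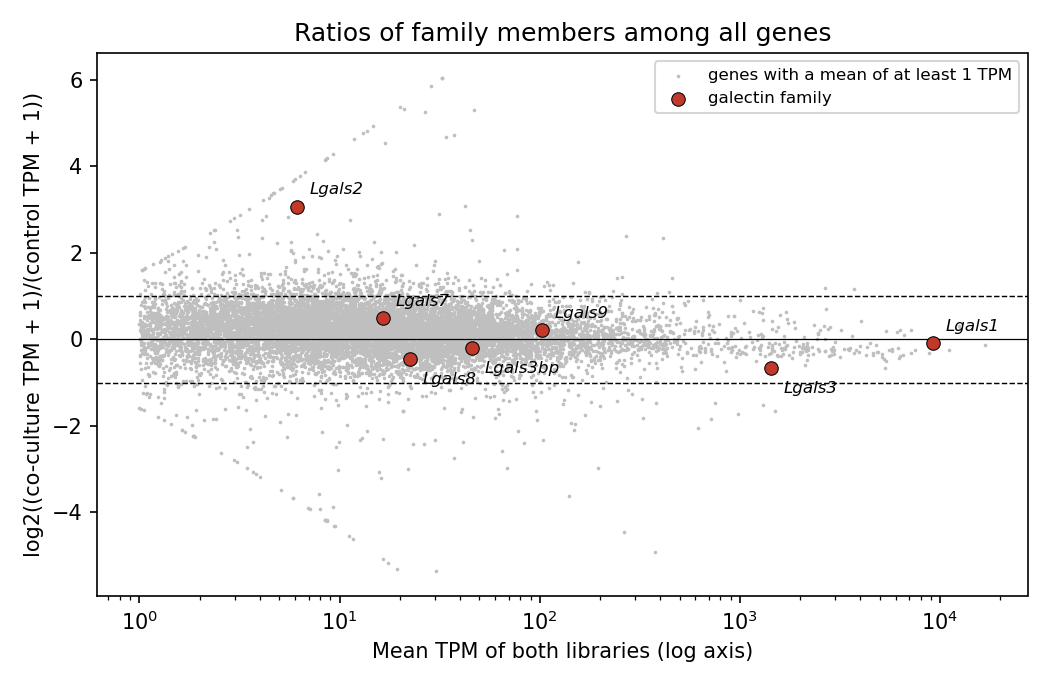
Log2 ratio of co-culture over control, with 1 TPM added to each, against the mean TPM of both libraries on a log axis; grey points are the 11258 detected genes, red points the 7 detected family members, and dashed lines mark 2-fold. Lgals2 stands at 3.06 and a mean of 6.14 TPM, and the other members lie between -0.67 and 0.49.

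Among the prototype galectins, Lgals1 encodes galectin-1, a secreted lectin known for inducing death of activated T cells. Lgals1 (ENSMUSG00000068220) lies on the plus strand of chromosome 15 of GRCm38 from 78926725 to 78930465. It ranked number 5 of all Ensembl genes by TPM in co-culture and number 6 in the control. Its log2 ratio was -0.09, and 29.2% of detected genes had a lower ratio. The annotated pseudogenes Lgals1-ps1 and Lgals1-ps2 were listed at 0 in both libraries.

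Lgals2 encodes galectin-2, a prototype galectin known mainly from the gut and, in humans, as a binding partner of lymphotoxin-alpha. Lgals2 (ENSMUSG00000043501) lies on the minus strand of chromosome 15 from 78850860 to 78855529, a gap of 71195 bases from Lgals1, and has 1 annotated transcript of 592 bases in 4 exons. The deposited values had a ratio of 22.2, and the log2 ratio was 3.06, or 2.89 above the median of all detected genes. Its rank by TPM was 6554 in co-culture and 11799 in the control. Of the detected genes 32, Lgals2 included, had a ratio at least this high, but Lgals2 was counted as detected through its co-culture value alone. Low levels spread more: of the 4450 detected genes with a mean below 10 TPM, 7.03% were at least 2-fold higher. Of those 4450 genes 16, Lgals2 included, had a ratio of at least that of Lgals2. With a pseudocount of 5 TPM its log2 ratio was 1.60 and with 0.1 TPM it was 4.23, so the size of the ratio rests on how the low control value is treated. Sequencing depth cannot be read from TPM, and the counting error of the 0.53 TPM is unknown.

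The genes around Lgals2 had smaller ratios. The last 38 bases of the gene overlap Cdc42ep1 on the opposite strand, which encodes a CDC42 effector and had 129 TPM in co-culture and 125 TPM in the control. Card10 on the left had a log2 ratio of 0.37 and Gga1 on the right had 0.10. The strandedness of the libraries is not known, so reads from the overlap cannot be assigned to a strand. No stretch of 50 bases of the Lgals2 transcript occurs in a transcript of any other gene in GENCODE M21, and the same held for the transcripts of Lgals1, Lgals3, Lgals3bp, Lgals4, Lgals7 and Lgals9. The overlap of 38 bases with Cdc42ep1 is shorter than that stretch, so this search could not show it.

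Lgals7 encodes galectin-7, the prototype galectin of stratified epithelia. Lgals7 (ENSMUSG00000053522) on chromosome 7 from 28863853 to 28866284 had 19.4 TPM in co-culture and 13.5 TPM in the control, a log2 ratio of 0.49. An antisense gene, Gm10648, spans it and had 0.02 TPM in co-culture and 0 in the control. Both of its neighbours, Lgals4 and Capn12, were at or below 0.04 TPM in both libraries.

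The chimera galectin, Lgals3, encodes galectin-3, which is also the macrophage antigen Mac-2 and binds glycans on damaged lysosomes. Lgals3 (ENSMUSG00000050335) lies on chromosome 14 from 47367751 to 47386160 on the plus strand. Its 1102 TPM in co-culture against 1748 TPM in the control was a change of -37.0% and a log2 ratio of -0.67. It ranked number 157 by TPM in co-culture and number 110 in the control. Only 4.90% of detected genes had a lower ratio. Lower values were common at this level: 47.5% of the 1141 genes with a mean of at least 100 TPM had a higher value in co-culture, and 2.80% were at least 2-fold lower. The adjacent gene Dlgap5, a mitotic spindle gene 1618 bases away on the opposite strand, had the opposite direction, with 45.1 TPM in co-culture and 19.5 TPM in the control.

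Lgals3 is strongly expressed by macrophages, and the levels of macrophage markers are given beside it. Of 22 macrophage and myeloid markers, 20 were below a mean of 1 TPM and 12 were listed at 0 in both libraries, among them Adgre1, Tyrobp, Fcer1g and Ptprc. Those 20 markers summed to 0.86 TPM in co-culture and 0.38 TPM in the control, and all 22 to 41.0 TPM and 67.0 TPM. Lyz2 had 0.04 TPM in co-culture and was listed at 0 in the control, and Csf1r had 0.01 TPM and 0.03 TPM. The detected markers were Cd68, with 27.8 TPM in co-culture and 57.7 TPM in the control, and Cd14, with 12.4 TPM and 8.87 TPM. The part of macrophage RNA in the Lgals3 values was not tested. Fibroblast markers summed to 12.98 TPM in co-culture and 9.29 TPM in the control, led by Pdgfra (10.2 TPM and 5.60 TPM), Tagln (1.36 TPM and 2.09 TPM) and Pdgfrb (0.65 TPM and 0.75 TPM). Lymphocyte and granulocyte markers summed to 4.89 TPM in co-culture and 0.79 TPM in the control, led by S100a8 (4.66 TPM and 0.60 TPM) and Cd79a (0.23 TPM and 0.04 TPM). All but S100a8 of these 14 markers were undetected, and 9 were listed at 0 in both libraries, S100a9 and Mpo among them. The highest of the undetected macrophage markers was Mertk, with 0.32 TPM in co-culture and 0.26 TPM in the control. Of 16 epithelial and carcinoma markers 6 were detected. Krt8 had 630 TPM in co-culture and 548 TPM in the control, Krt18 had 484 TPM and 439 TPM and Krt7 had 18.3 TPM and 15.9 TPM. Epcam was listed at 0 in both, and Cdh1 had 0.01 TPM in co-culture and 0.04 TPM in the control, and the other detected markers were Cldn3 (14.1 TPM in co-culture, 8.14 TPM in the control), Elf3 (10.1 TPM and 5.77 TPM) and Krt19 (2.64 TPM and 0.18 TPM). In bulk RNA, fewer cells of a type and less RNA per cell cannot be told apart.

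Of the tandem-repeat galectins, Lgals9 and Lgals8 had different directions in the deposited values, and Lgals4 was not detected. Lgals9 encodes galectin-9, a ligand of the inhibitory receptor TIM-3. Lgals9 (ENSMUSG00000001123) on chromosome 11 from 78962974 to 78984946 had 110 TPM in co-culture and 95.01 TPM in the control, and its log2 ratio of 0.21 lay close to the median of all detected genes. The Lgals9 ratio was 0.09 with median ratio centring, 0.02 with TMM and 0.41 after length and GC trends were removed. Lgals8 encodes galectin-8, which marks vesicles broken by bacteria and, in human cells, recruits an autophagy receptor to them. Lgals8 (ENSMUSG00000057554) on chromosome 13 from 12439415 to 12464944 had 18.8 TPM in co-culture and 25.97 TPM in the control, a log2 ratio of -0.45, below which lay 9.56% of detected genes. There were 5.86 Lgals9 transcripts per Lgals8 transcript in co-culture, against 3.66 in the control. Lgals8 overlaps Heatr1, a ribosome biogenesis gene on the opposite strand, over 875 bases, and 3.87% of its 50-base stretches also occur in transcripts of other genes. Heatr1 had 21.3 TPM in co-culture and 23.5 TPM in the control, so the Lgals8 value is uncertain to the extent that shared reads were divided between them. Lgals4 encodes galectin-4 of the intestinal epithelium. Lgals4 (ENSMUSG00000053964) on chromosome 7 from 28833854 to 28841708 had 0.04 TPM in co-culture and was listed at 0 in the control, so no ratio is read from it.

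Lgals3bp encodes a secreted, heavily glycosylated scavenger-receptor protein that galectins bind, and is not itself a galectin. Lgals3bp (ENSMUSG00000033880) on chromosome 11 from 118392751 to 118402092 had 42.6 TPM in co-culture and 49.0 TPM in the control, a log2 ratio of -0.20. Its direction was that of Lgals3, at a smaller size. Of the galectin-fold relatives outside the family list, Lgalsl had 4.50 TPM in co-culture and 4.65 TPM in the control, Lgals12 and Grifin were listed at 0 in both, and Lgals6 was not analysed here.

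The genes nearest to each member in level over the 2 libraries, by Euclidean distance of log2(TPM + 1), were as follows. For Lgals1 they were Rplp1, Eef1a1 and Rps2-ps10, and for Lgals3 Rpl35, Rpl28 and Rps3, the first with 1158 TPM in co-culture and 1511 TPM in the control. Nearest to Lgals2 were Gm7970, Zfp964 and 2500002B13Rik, at distances from 0.175 to 0.561. For Lgals7 the list was Gm21596, Nicn1 and Ddr1, for Lgals8 Scnm1, Mrpl57 and Mocs2, for Lgals9 Lsm2, Tufm and 1110008P14Rik, and for Lgals3bp Elp3, Ncbp1 and Rtca. With 2 values per gene this likeness is no more than a similar pair of levels.

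**Figure D3:**
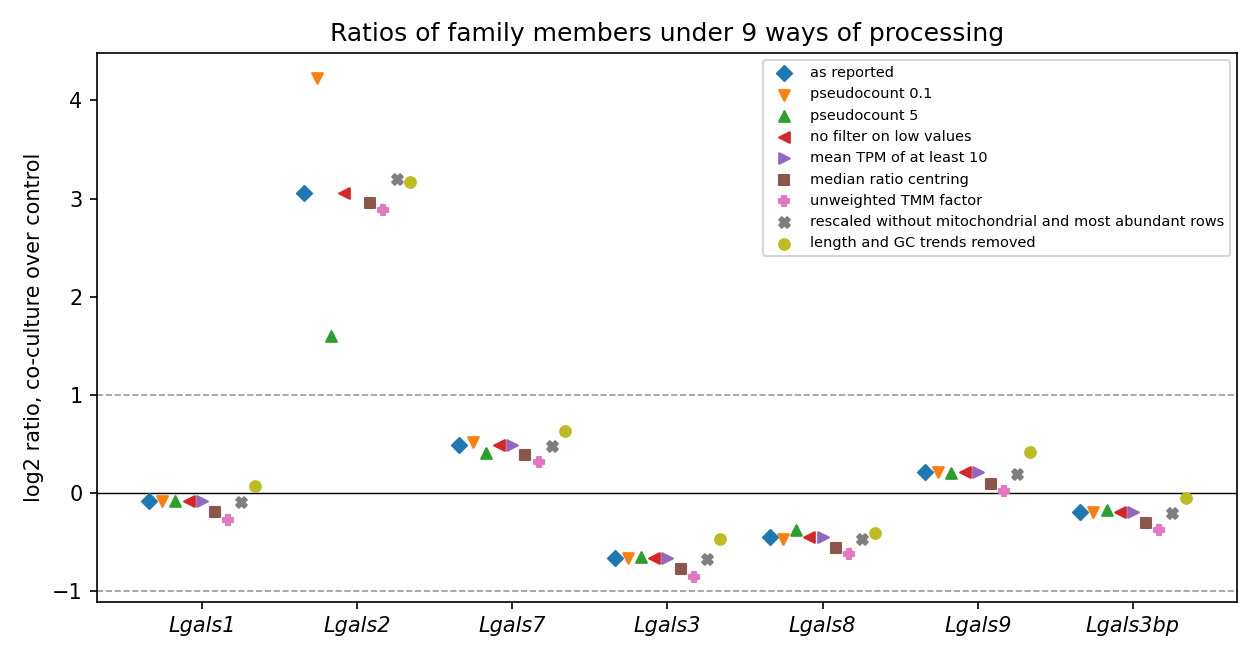
Log2 ratio of co-culture over control for the 7 detected members under 9 ways of processing, each marker a setting named in the legend; dashed lines mark 2-fold. Lgals2 stays above 1 wherever it was kept, with values from 1.60 to 4.23, Lgals3 lies between -0.86 and -0.47, and Lgals1 changes sign, from -0.28 to 0.07.

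Galectins read glycans, so genes around galectins and their ligands were set beside them, in 7 lists of genes chosen for known function. Of these, 4 hold genes that build or cap glycans and are called glycan-building here. The others hold surface glycoproteins, matrix glycoproteins and genes acting on broken vesicles. Earlier results of these data were known when the lists were chosen. In the 4 glycan-building lists together, 39 of 49 detected genes (79.6%) had higher values in co-culture, 8 (16.3%) were at least 2-fold higher and 0 were 2-fold lower, with a median log2 ratio of 0.44. The shares over all detected genes were 64.5%, 4.95% and 2.14%, and their median was 0.17. These shares were not matched to the lists by level. Among genes with a mean from 1 to below 10 TPM, 70.4% were higher and 7.03% at least 2-fold higher. From 10 to below 100 TPM the shares were 63.2% and 3.94%. The galectins themselves, without Lgals3bp, had 3 of 6 detected genes higher and a median of 0.06. The count past 2-fold depended on the setting. With a pseudocount of 5 TPM it was 2 of the 8, B4galt5 and B3gnt3, and the share over all detected genes was 1.77%. With 0.1 TPM it was larger: 3 branching, 2 galactose and poly-N-acetyllactosamine, 4 O-glycan core and 2 capping genes. The share over all detected genes was then 7.87%.

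N-glycan branching enzymes decide how many antennae an N-glycan offers to galectins. In co-culture 10 of 12 detected genes were higher, the median was 0.72, and 2 genes passed 2-fold. Over all detected genes 64.5% were higher and 4.95% at least 2-fold higher, with a median of 0.17. The list median was 0.41 with a pseudocount of 5 TPM and 0.19 over its genes with a mean of at least 10 TPM. Mgat5, which starts the branch that is the preferred site of poly-N-acetyllactosamine and of galectin-3 binding, had 6.79 TPM in co-culture and 1.93 TPM in the control, a log2 ratio of 1.41. Mgat3, which adds the bisecting residue that hinders further branching, had 13.8 TPM in co-culture and 6.29 TPM in the control. The mannosidase genes Man2a1 and Man1c1 both had ratios of 0.86. The most abundant gene of the list, Mgat4b, had the lowest ratio, with 179 TPM in co-culture and 235 TPM in the control. The list's summed TPM was accordingly 383 in co-culture and 402 in the control. Mgat3 did not reach 2-fold after centring on the median ratio or after TMM scaling, and no gene of the list reached it when 5 TPM was the pseudocount.

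The galactose and poly-N-acetyllactosamine genes make the disaccharide that galectins recognise. Of 13 detected genes 10 had higher values and 2 were at least 2-fold higher, with a median of 0.30. Beside them, 64.5% of all detected genes were higher and 4.95% at least 2-fold higher, with a median of 0.17. B4galt5, a galactosyltransferase that also makes lactosylceramide, had 51.0 TPM in co-culture and 18.6 TPM in the control, a log2 ratio of 1.41. B3gnt3, an N-acetylglucosaminyltransferase that extends O-glycans, had 35.8 TPM in co-culture and 14.2 TPM in the control (log2 ratio 1.27). B3gnt2, the main poly-N-acetyllactosamine synthase and the most abundant gene of the list, had 64.0 TPM and 40.5 TPM in those libraries, and the transporter gene Slc35a3 had a ratio of 0.66. Both B4galt5 and B3gnt3 were past 2-fold under every alternative run.

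**Figure D4:**
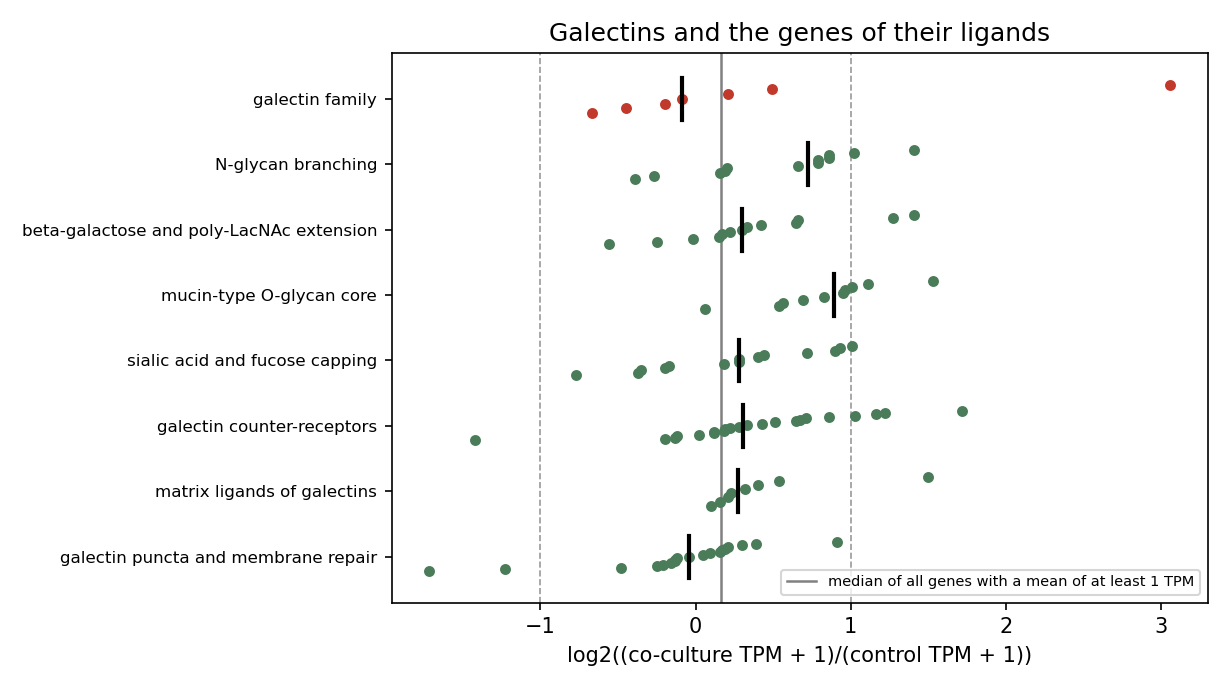
Log2 ratios of co-culture over control for the detected genes of the galectin family (red) and of 7 lists around it (green), each point a gene, black bars the list medians, the grey line the median of all detected genes at 0.17 and dashed lines 2-fold. The medians run from -0.09 for the 7 family members, Lgals3bp included, and -0.04 for puncta and membrane repair up to 0.72 for N-glycan branching and 0.89 for the mucin-type O-glycan core.

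The mucin-type O-glycan core list holds genes that start and branch O-glycans. Of its 16 genes 6 were undetected, among them Gcnt1, Gcnt3, Gcnt4 and B3gnt6. The 10 detected genes all had higher values in co-culture, with a median of 0.89, and 3 of them were at least 2-fold higher. Of all detected genes 64.5% were higher and 4.95% at least 2-fold higher. Galnt12 and Galnt3, which attach the first sugar, had 11.9 TPM and 9.90 TPM in co-culture against 5.00 TPM and 4.41 TPM in the control. The third was Gcnt2, with 6.71 TPM in co-culture and 1.67 TPM in the control, a log2 ratio of 1.53, and it is known for branching poly-N-acetyllactosamine rather than O-glycan cores. Galnt7 had a ratio of 0.96, and the most abundant gene, Galnt1, had 36.2 TPM in co-culture and 19.96 TPM in the control. With a pseudocount of 5 TPM none of the list was past 2-fold.

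Sialic acid and fucose cap the galactose end, and alpha-2,6-linked sialic acid is known to block galectin-1. In co-culture 9 of 14 detected genes were higher, close to the share of 64.5% over all detected genes. The list median was 0.28 beside 0.17 over all detected genes. Past 2-fold was 1 gene of the list, beside 4.95% of all detected genes. St3gal1, which caps core 1 O-glycans, had 53.8 TPM in co-culture and 26.3 TPM in the control (log2 ratio 1.01), under 2-fold when any of the 3 rescalings was applied. St6gal1, the alpha-2,6 sialyltransferase of N-glycans, had 12.2 TPM in co-culture and 6.10 TPM in the control, and St3gal2 had a ratio of 0.93. Gne, which makes the sialic acid precursor, had the lowest ratio of the list, with 9.23 TPM in co-culture and 16.5 TPM in the control. The most abundant gene, St3gal4, had a ratio of 0.18.

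Glycoproteins to which galectins bind at the surface had 18 of 22 detected genes higher in co-culture, 4 at least 2-fold higher and 1 at least 2-fold lower, with a median of 0.31. Over all detected genes these shares were 64.5%, 4.95% and 2.14%, with a median of 0.17. Under TMM scaling the list median was 0.15 and that of all detected genes was -0.01. The 2-fold higher genes were the integrin chains Itgb3 (log2 ratio 1.72) and Itgav (59.5 TPM in co-culture, 24.98 TPM in the control), Mcam (11.03 TPM and 4.37 TPM), and Spn, which encodes the leukocyte sialoglycoprotein CD43 (17.5 TPM and 8.05 TPM). Spn falls outside the naming rule and is given to complete the count. Slc3a2, the heavy chain of CD98 and a galectin-3 ligand, had 131 TPM in co-culture and 354 TPM in the control, a log2 ratio of -1.42. Bsg (basigin) was the most abundant of the list, with 782 TPM in co-culture and 673 TPM in the control. Havcr2, which encodes the galectin-9 receptor TIM-3 and was chosen after its values were seen, had 2.89 TPM in co-culture and 2.42 TPM in the control. Undetected were 9 genes, among them the mucin genes Muc1, Muc4 and Muc16.

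Matrix glycoproteins bound by galectins had 8 of 8 detected genes higher in co-culture with a median of 0.28, and 1, Thbs1 (18.3 TPM in co-culture, 5.83 TPM in the control), was past 2-fold. Of all detected genes 64.5% were higher and 4.95% at least 2-fold higher, with a median of 0.17. With TMM the list median was 0.09 and that of all detected genes was -0.01. Lamc1, Hspg2 and Col4a1 had ratios of 0.54, 0.40 and 0.32. Lama5, a laminin chain and the most abundant of the list, had 231 TPM in co-culture and 216 TPM in the control.

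Genes that act with galectins on broken endosomes and lysosomes had a median of -0.04, with 9 of 19 detected genes higher and 10 lower in co-culture. Over all detected genes the median was 0.17 and 64.5% were higher. At least 2-fold lower were 2 genes, beside 2.14% of all detected genes. Sqstm1, which encodes the autophagy receptor p62, had 453 TPM in co-culture and 1494 TPM in the control (log2 ratio -1.72). Mcoln1, a lysosomal calcium channel gene, had 17.4 TPM in co-culture and 42.3 TPM in the control (log2 ratio -1.23). These 2 genes had the direction of Lgals3 and Lgals8 at a larger size, while the list as a whole was split between directions. Ulk1, an autophagy kinase gene, had 6.25 TPM in co-culture and 2.86 TPM in the control, and Fbxo6 had a ratio of -0.48. Trim16, a partner of galectin-3 in autophagy in human cells, had 17.9 TPM and 18.4 TPM in those libraries. Calcoco2, the human counterpart of which binds galectin-8, was undetected at 0.07 TPM and 0.18 TPM. The last 2 genes were chosen after their values were seen.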

How the data were processed

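The authors deposited 1 table of TPM values, 1 column per library, over 52796 rows, of which 51912 carry Ensembl identifiers and 884 are loci of an assembler. Those loci held 6.47% of the TPM in co-culture and 4.38% in the control. They were used only in the rescaling and in the library totals behind the galectin shares of all transcripts. HISAT2 2.1.0, RSEM 1.2.31 and GRCm38.p5 are named in the submitters' processing notes, without roles; the annotation release, strandedness and filters: not given in the sources used here. RSEM divides reads shared between genes, so values of overlapping genes are uncertain. TPM keeps no depth, so the precision of each value is unknown.

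Symbols, positions and transcripts came from GENCODE M21 (GRCm38), with symbols for 51633 identifiers; where rows shared a symbol, the most abundant was used. Promoter windows are RefSeq's (GRCm38.p6). Log2 ratios used a pseudocount of 1 TPM, detection a mean of at least 1 TPM and calls a 2-fold difference; no test was possible. The members and lists were chosen with earlier results of these data known. Named were all members, up to 4 detected genes per list with the largest absolute ratio and its most abundant gene, the highest and the defining markers of other cell types, and the 3 genes nearest in level to each member. Computation used Python 3.11.15, pandas 2.3.3 and statsmodels 0.14.6, and was tested on simulated data. Alternatives were other pseudocounts, filters and scalings (median ratio; unweighted TMM with trims of 30% and 5%; leaving out mitochondrial genes and the top 20 rows). A correction for GC content and transcript length by lowess (span 0.3) was added after the data were seen.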

Additional observations from a re-analysis of the deposited data

How the results depend on the processing

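No paired analysis was possible because each group has 1 library, and for the same reason no library could be left out. The scalings divided co-culture values by 1.083 (median ratio), 1.141 (TMM) and 1.01 (without mitochondrial and most abundant rows), shifts of 0.12, 0.19 and 0.01 in log2, and the median of all detected genes was then 0.06, -0.01 and 0.16 against 0.17 as deposited. Of 55 member ratios under the alternatives 54 kept their direction and their side of 2-fold. The exception was Lgals1, at 0.07 after length and GC trends were removed and between -0.28 and -0.09 otherwise. With a minimum mean of 10 TPM Lgals2 was not kept, so 0 members were 2-fold higher.

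List counts of 2-fold higher genes depended on the setting. For counter-receptors the count was 2 with a pseudocount of 5 and with TMM, against 4. For N-glycan branching it was 0 with a pseudocount of 5 and 1 with a minimum of 10 TPM, median ratio centring, TMM or trend removal, against 2. For the O-glycan core it was 0 with a pseudocount of 5 or a minimum of 10 TPM and 1 with TMM, against 3. For capping it was 2 with a pseudocount of 0.1 and 0 with a pseudocount of 5, any other scaling or trend removal, against 1. For puncta and membrane repair it was 1 with a pseudocount of 0.1, against 0, and the list's median was 0.01 after trend removal, against -0.04. Among all genes, 7.87% were 2-fold higher with a pseudocount of 0.1, 1.77% with 5, 1.17% without a filter and 3.01% with TMM, and 1.15% were 2-fold lower with a pseudocount of 5, 0.545% without a filter and 3.16% with TMM. The medians of the lists ranged over the alternatives from 0.15 to 0.39 for counter-receptors, 0.09 to 0.28 for matrix ligands, 0.19 to 0.81 for branching, 0.12 to 0.38 for galactose and poly-N-acetyllactosamine, 0.55 to 0.92 for the O-glycan core and 0 to 0.39 for capping. The cause of these shifts was not tested.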
